A study of Homo sapiens with 8 samples.

Results

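The 7 human APOBEC3 genes (APOBEC3A, APOBEC3B, APOBEC3C, APOBEC3D, APOBEC3F, APOBEC3G and APOBEC3H) and SAMHD1 were followed in RNA sequencing of NB4 cells. They were chosen by name, as restriction factors that act on DNA or on its precursors, and make up 8 of the 22627 gene symbols in the deposited tables. Their level was the FPKM (fragments scaled to the length of a model and to the mapped fragments of its group) summed over the RefSeq transcript models of each symbol, 14 models in all for these genes. NB4 is an established human acute promyelocytic leukaemia line whose cells mature along the myeloid lineage under all-trans retinoic acid (ATRA). All cells described here carried a lentivirally delivered short hairpin RNA, either scrambled (shScr) or directed at TFEB (shTFEB), which encodes a regulator of lysosomal and autophagy genes. Each line was kept for 72 h with ethanol (vehicle) or with 1 µM ATRA, with 2 labelled samples in each of the 4 groups and 8 samples in all. The labels do not say whether a line was a clone or a pool of transduced cells, and they use the word vehicle also in the titles of the shScr ATRA samples, whose group was taken from the description and treatment. Wild-type NB4 cells were not analysed here.

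The tables hold 1 value per model and group, so the spread between the samples of a group could not be computed, no test was possible and no p-value is given. A gene is said to rise or fall where log2((FPKM + 1)/(FPKM + 1)) was at least 1 in size, which marks a 2-fold difference and tests nothing. Each FPKM comes with a lower and an upper bound in the authors' tables, here called its bounds. Of the 32 values of these genes, 7 lay outside their own bounds, 5 above and 2 below, so bounds are given as deposited and are not read as confidence intervals. Depth relative to shScr vehicle, read from the spacing of the lowest values, was 1.05 in shScr ATRA, 1.17 in the vehicle group labelled shTFEB and 0.911 in shTFEB ATRA. In bulk RNA, fewer cells of a type and less RNA per cell cannot be told apart.

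TFEB itself read 1.203 FPKM with vehicle and 19.4 with ATRA in shScr cells, 1.35 in the vehicle group labelled shTFEB and 8.44 in shTFEB ATRA. The targeted mRNA was thus lower with the hairpin under ATRA and not under vehicle, and that vehicle group is called labelled shTFEB throughout. Both vehicle values were low and their bounds overlapped (0.928 to 1.52 and 1.11 to 1.63 FPKM), so TFEB mRNA does not settle the label there. Of 7 promyelocyte markers, 5 were compared. MPO (3871, 662, 2462 and 594 FPKM in the order shScr vehicle, shScr ATRA, labelled shTFEB vehicle and shTFEB ATRA) and PRTN3 led them, while ELANE and KIT were at or near 0. The 7 markers summed to 4333, 824, 2820 and 707 FPKM, most of it MPO. With ATRA 4 of the 5 fell in each line, and CD33 did not (23.4, 29.3, 25.3 and 25.6 FPKM). The 9 monocyte and macrophage markers summed to 68.5, 112, 83.4 and 109 FPKM. Among them CSF1R read 1.37, 23.6, 1.06 and 19.4 FPKM, CX3CR1 also rose in both lines, LYZ fell in both, and CD14 did not exceed 1.09 FPKM. The 8 T and NK cell markers summed to 28.4, 170, 30.0 and 113 FPKM, most of it NKG7 (23.6, 168, 26.4 and 111 FPKM). CD3D read 3.76, 0.514, 2.71 and 0.368 FPKM, CD3E 0.0539 FPKM or less, and GZMB was at 0 in all 4 groups. Among the 4 B cell markers, which summed to 11.4, 19.4, 9.59 and 20.5 FPKM, MS4A1 was at 0, CD79A rose (2.41, 18.5, 2.09 and 19.7 FPKM) and CD79B fell (8.85, 0.551, 7.19 and 0.208 FPKM). The 5 erythroid markers summed to 0.0465 FPKM or less. The part of these maturation markers in the results below was not tested.

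APOBEC3 proteins remove the amino group from cytosine in single-stranded DNA, which leaves uracil. They restrict retroviruses and retroelements in this way, and some members can also mutate the cell's own DNA. SAMHD1 cleaves deoxynucleoside triphosphates, the precursors of DNA, and so limits reverse transcription in resting myeloid cells, and its antiviral activity is switched off when cyclin-dependent kinases phosphorylate it. The HIV or SIV accessory proteins Vif and Vpx send members of these groups to cullin ubiquitin ligases. Many of these genes respond to interferon in myeloid cells.

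The APOBEC3 genes lie side by side on chromosome 22 (hg19, 39353527 to 39500072, from the start of APOBEC3A to the end of APOBEC3H), and SAMHD1 lies on chromosome 20 (35520227 to 35580246). The RefSeq promoter table of build GRCh38.p14 holds entries for 2 of the 8 genes, SAMHD1 and APOBEC3H, which showed the largest increase and the lowest starting level. Their 250 bases before the annotated start, on the gene's own strand, are shown because both genes rose with ATRA in both lines. Capitals mark the CpG pairs.
SAMHD1, GRCh38.p14 chr20:36951709-36951958, minus strand: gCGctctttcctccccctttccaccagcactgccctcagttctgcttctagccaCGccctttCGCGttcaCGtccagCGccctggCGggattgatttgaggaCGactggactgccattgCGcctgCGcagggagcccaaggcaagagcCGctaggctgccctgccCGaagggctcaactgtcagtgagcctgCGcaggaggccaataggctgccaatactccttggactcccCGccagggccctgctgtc
APOBEC3H, GRCh38.p14 chr22:39096994-39097243, plus strand: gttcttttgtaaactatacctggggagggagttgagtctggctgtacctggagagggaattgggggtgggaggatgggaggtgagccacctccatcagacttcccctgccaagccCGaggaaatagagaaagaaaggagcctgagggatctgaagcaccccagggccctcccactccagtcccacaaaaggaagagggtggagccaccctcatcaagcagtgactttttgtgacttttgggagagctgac
The SAMHD1 stretch holds 14 CpG pairs and that of APOBEC3H holds 1, against a median of 11 over the same 250 bases of 27305 promoters. Fewer CpG pairs than in SAMHD1 were counted in 55.3% of those promoters, and fewer than in APOBEC3H in 6.39%. Windows of 300 bases, which add the first 50 transcribed bases, were searched on both strands for the core of an interferon-stimulated response element (GAAA, any 2 bases, GAAA) and for TTCNNNGAA, the STAT-binding motif. Neither gene's window held a match to either, and 3.65% and 7.88% of all promoters did. No match says only that these letters are not in this window. Promoter entries of APOBEC3A, APOBEC3B, APOBEC3C, APOBEC3D, APOBEC3F and APOBEC3G were not used here.

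The APOBEC3 genes arose by duplication, and how much sequence they share bears on how reads could be assigned to each. The longest coding stretches common to a pair of neighbours, read from the GENCODE 29 copies of the RefSeq transcripts, are printed in lower case because a read that falls inside them has the same letters in both genes.
Shared by APOBEC3A and APOBEC3B: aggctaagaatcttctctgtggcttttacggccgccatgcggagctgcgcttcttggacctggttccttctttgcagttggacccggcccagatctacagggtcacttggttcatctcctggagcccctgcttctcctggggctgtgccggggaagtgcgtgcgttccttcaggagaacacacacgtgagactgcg
Shared by APOBEC3D and APOBEC3F: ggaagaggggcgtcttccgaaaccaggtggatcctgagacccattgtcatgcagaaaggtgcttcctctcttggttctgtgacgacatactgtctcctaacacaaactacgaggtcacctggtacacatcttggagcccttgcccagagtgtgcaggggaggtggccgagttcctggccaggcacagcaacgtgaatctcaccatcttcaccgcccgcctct
The first run has 196 bases and covers positions 343 to 538 of the APOBEC3A transcript and 767 to 962 of the APOBEC3B transcript, counted from the 5′ end. The second has 222 bases, positions 1144 to 1365 in APOBEC3D and 1055 to 1276 in APOBEC3F. Of all 50-base words in the transcripts of APOBEC3A, 22.6% also occurred in another of the 8 genes. This share was 33.5% for APOBEC3B, 1.16% for APOBEC3C, 15.2% for APOBEC3D, 21.3% for APOBEC3F and 19.1% for APOBEC3G. APOBEC3H and SAMHD1 shared none. When transcripts of all other GENCODE 29 genes were added, APOBEC3D had the lowest share of words found in no other gene, 11.6%, against 66.5% (APOBEC3B) to 100% (APOBEC3H) for the remaining members. Of the APOBEC3D words, 87.3% occurred in genes outside the 8, and 83.6% in a single gene that is annotated as overlapping APOBEC3D on the same strand. The values of APOBEC3A, APOBEC3B, APOBEC3D, APOBEC3F and APOBEC3G are uncertain to the extent that the authors' counting split such reads, and how it treated them is not given in the sources used here.

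**Figure D1:**
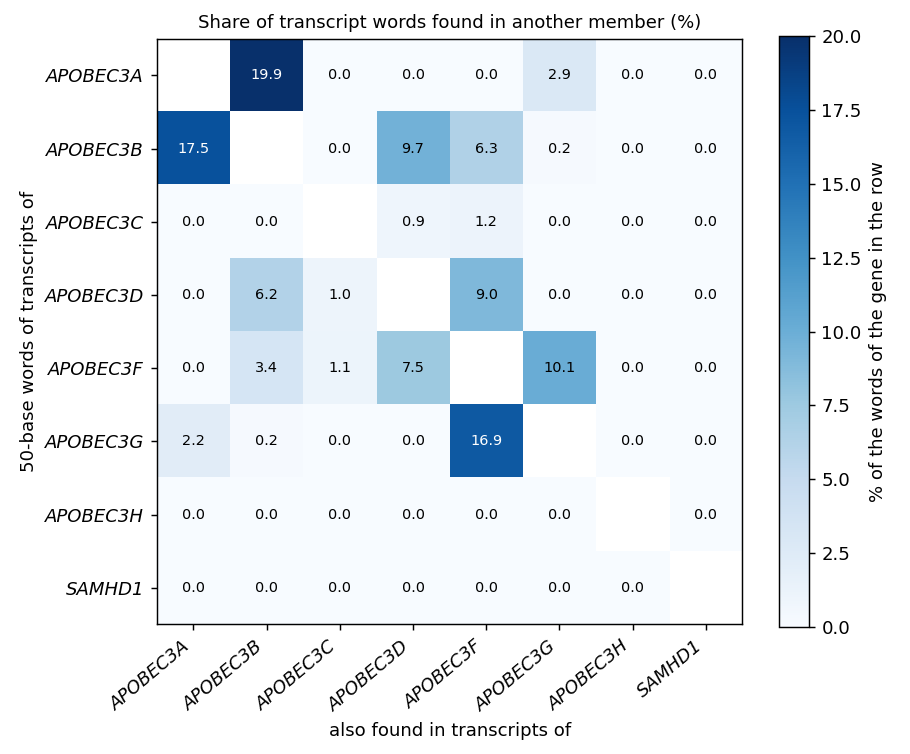
Share of the 50-base words of each gene's transcripts (vertical axis) that also occur in transcripts of another of the 8 genes (horizontal axis), in percent. The largest shares are between APOBEC3A and APOBEC3B (19.9% and 17.5%) and from APOBEC3G to APOBEC3F (16.9%), while APOBEC3H and SAMHD1 share no word.

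Among the APOBEC3 proteins with a single deaminase domain, APOBEC3A, a potent mutator of DNA that is known as an interferon-induced gene of monocytes, stood at 3.81 FPKM in shScr vehicle and 3.96 in shScr ATRA. It stood at 4.17 FPKM in labelled shTFEB vehicle and 4.94 in shTFEB ATRA. Its bounds overlapped between ATRA and vehicle in both lines, and 1 of its 2 models held all of its value. APOBEC3C, a weak restriction factor with broad expression, read 21.9, 30.9, 23.6 and 44.6 FPKM in the same order. Both ATRA groups were above both vehicle groups, and shTFEB ATRA was highest. The deposited APOBEC3C value exceeded its own upper bound in all 4 groups (the bounds ran from 17.1 to 19.5 FPKM in shScr vehicle and from 35.3 to 39.1 FPKM in shTFEB ATRA). APOBEC3H, an antiviral member with human haplotypes of unequal stability, read 0.0295 and 1.70 FPKM in shScr vehicle and ATRA, was listed at 0 in labelled shTFEB vehicle and read 3.60 FPKM in shTFEB ATRA. It was near or at 0 under vehicle and present under ATRA in both lines.

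The other members carry a pair of deaminase domains. APOBEC3B, a nuclear enzyme linked to mutations in tumours, read 20.2, 20.04, 21.2 and 27.98 FPKM. The first 3 groups overlapped in their bounds and shTFEB ATRA, with bounds of 26.6 to 29.5 FPKM, stood above them. APOBEC3D, which restricts HIV lacking Vif, read 2.76, 6.001, 3.23 and 7.07 FPKM, so that both ATRA groups were above both vehicle groups. APOBEC3F, a cytoplasmic restriction factor, read 1.63, 2.83, 1.76 and 7.53 FPKM. APOBEC3G, the best known Vif target, read 1.35, 6.92, 2.21 and 14.9 FPKM, the last of these above its own upper bound of 14.4 FPKM. For both APOBEC3F and APOBEC3G the order was the same, with shTFEB ATRA highest, then shScr ATRA, labelled shTFEB vehicle and shScr vehicle.

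SAMHD1, the deoxynucleotide triphosphohydrolase, read 23.1, 155, 17.5 and 249 FPKM in the same order. Its 4 bounds were apart from one another. In both ATRA groups the value lay just under its own lower bound (155.7 and 249.9 FPKM). Among the 11052 compared genes SAMHD1 stood above 71.1% in shScr vehicle and above 96.4% in shScr ATRA. In the shTFEB line it stood above 63.0% under vehicle and above 97.3% under ATRA.

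**Figure D2:**
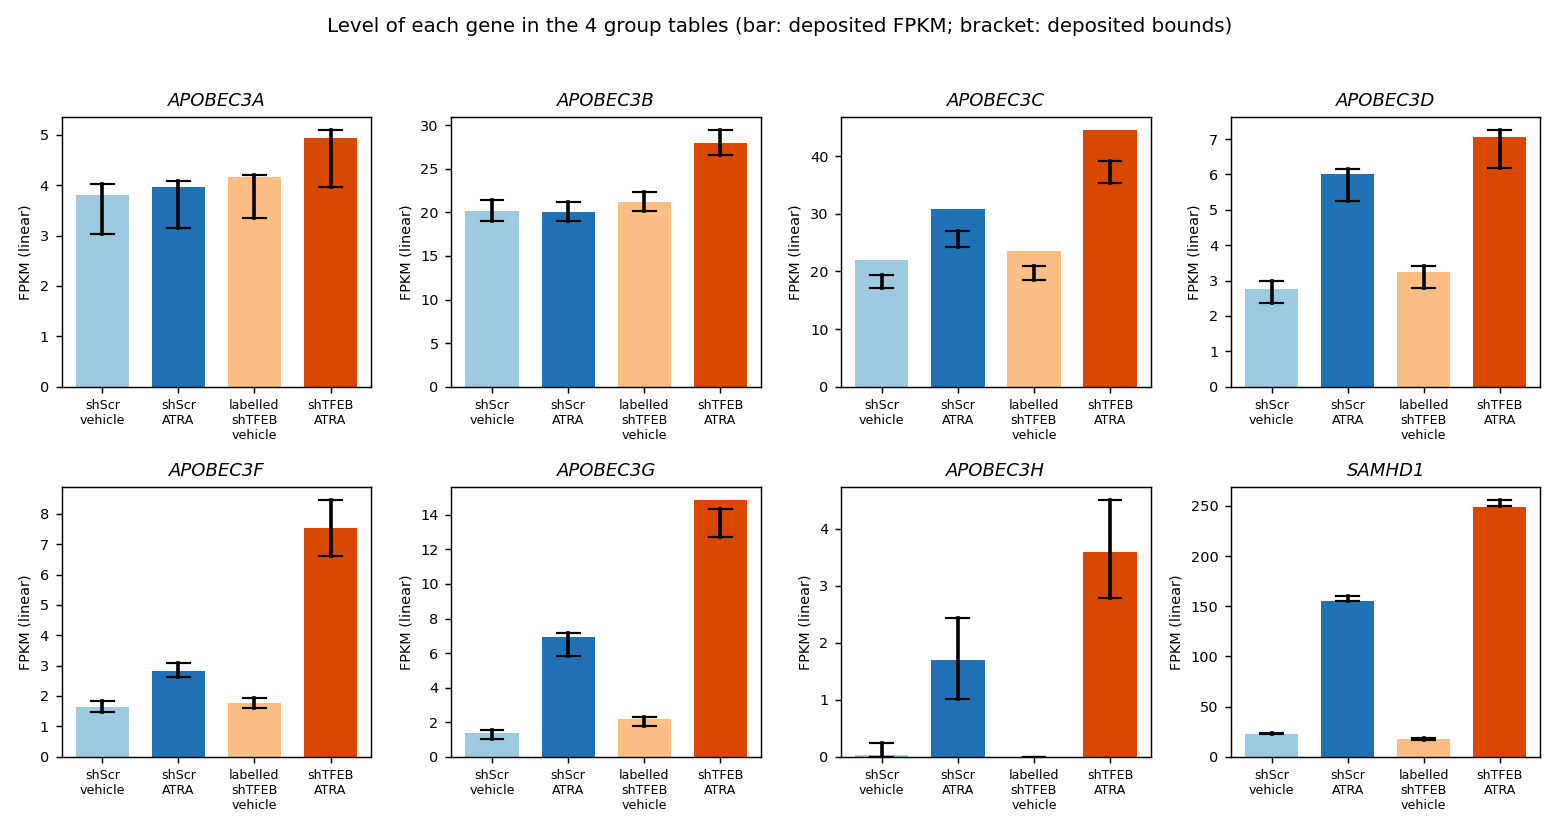
FPKM of each gene (vertical axes, linear, each with its own scale) in the 4 groups; bars are the deposited values and brackets the deposited bounds, which are not confidence intervals. SAMHD1 reaches 155 and 249 FPKM in the ATRA groups, APOBEC3G and APOBEC3H also stand higher there, and APOBEC3A stays between 3.81 and 4.94 FPKM.

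FPKM is scaled to model length, and on that scale levels were set side by side between genes. The order and the APOBEC3 shares that follow are uncertain where members share sequence, and for APOBEC3C, whose values lay above their bounds. In shScr vehicle the order was SAMHD1, APOBEC3C, APOBEC3B, APOBEC3A, APOBEC3D, APOBEC3F, APOBEC3G and APOBEC3H, and the neighbours APOBEC3C with APOBEC3B and APOBEC3F with APOBEC3G had overlapping bounds. In shScr ATRA APOBEC3G moved ahead of APOBEC3D (with overlapping bounds) and of APOBEC3A. In labelled shTFEB vehicle APOBEC3C and APOBEC3B, which overlapped, stood above SAMHD1. In shTFEB ATRA the order was SAMHD1, APOBEC3C, APOBEC3B, APOBEC3G, APOBEC3F, APOBEC3D, APOBEC3A and APOBEC3H. The bounds of APOBEC3F overlapped those of APOBEC3D, and those of APOBEC3A overlapped those of APOBEC3H.

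The 7 APOBEC3 genes together gave 51.7 FPKM with vehicle and 72.3 with ATRA in shScr cells, 56.2 in labelled shTFEB vehicle and 110.6 in shTFEB ATRA. APOBEC3B and APOBEC3C made up 81.5% of this sum in shScr vehicle and 79.8% in labelled shTFEB vehicle. Under ATRA they made up 70.4% in shScr and 65.6% in shTFEB cells. APOBEC3D, APOBEC3F, APOBEC3G and APOBEC3H together held 11.2% and 12.8% of the sum in these vehicle groups and 24.1% and 29.9% in the ATRA groups. The ratio of SAMHD1 to the APOBEC3 sum was 0.446 and 0.311 under vehicle and 2.15 and 2.25 under ATRA.

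With ATRA in shScr cells, SAMHD1, APOBEC3G and APOBEC3H rose and no member fell. SAMHD1 was 6.74-fold higher (log2 ratio 2.70) and ranked 354 from the top of all 11052 genes. APOBEC3G was 5.11-fold higher (1.75). APOBEC3H had a log2 ratio of 1.39, and no fold is given because its vehicle value was 0.0295 FPKM. These are 3 of 8 genes, beside 12.5% of all genes compared that passed the mark upwards and 15.2% that passed it downwards. With a pseudocount of 5 FPKM the APOBEC3G and APOBEC3H calls ended (0.91 and 0.41). All 8 genes met the mean of 1 FPKM required of a compared gene, APOBEC3H only through its ATRA groups. Its place among the higher genes was thus in part built into that requirement. Dropping the requirement leaves the APOBEC3H ratios as they are, so that setting could not test this limit.

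The remaining members did not reach the mark in shScr cells. APOBEC3D came nearest at 2.17-fold without a pseudocount (log2 ratio 0.90 with it, and 1.09 with a pseudocount of 0.1 FPKM), followed by APOBEC3F at 0.54 and APOBEC3C at 0.48. APOBEC3A stood at 0.05 and APOBEC3B at −0.01, a sign that turned under both rescalings (0.16 and 0.12). The median log2 ratio was 0.72 over the 8 genes and −0.15 over all genes. Bounds of the ATRA and vehicle groups were apart, with ATRA higher, for 6 of the 8 genes (all but APOBEC3A and APOBEC3B), and this was so for 33.2% of all genes. None was lower with bounds apart, against 47.9% of all genes.

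With ATRA in shTFEB cells, SAMHD1, APOBEC3G, APOBEC3H and APOBEC3F rose, and again no member fell. SAMHD1 was 14.3-fold higher than in labelled shTFEB vehicle (log2 ratio 3.76) and ranked 177 from the top. APOBEC3G was 6.74-fold higher (2.31) and APOBEC3F 4.28-fold higher (1.63). The APOBEC3F call ended without its short model (0.88) and with a pseudocount of 5 FPKM (0.89), and the APOBEC3H call with that pseudocount (0.78). APOBEC3H, listed at 0 under vehicle and compared only through its ATRA groups, had a log2 ratio of 2.20. These are 4 of 8 genes, beside 11.5% of all genes past the mark upwards and 10.5% downwards. APOBEC3D reached 0.93 and APOBEC3C 0.89 (1.05 and 1.03 after median-of-ratios rescaling), APOBEC3B 0.38 and APOBEC3A 0.20. The median over the 8 genes was 1.28 and over all genes −0.13. ATRA values stood above vehicle with bounds apart in 7 of the 8 genes, against 31.8% of all genes, and the exception was APOBEC3A. No member had ATRA below vehicle with bounds apart, against 46.1% of all genes. Passing the mark in both lines were APOBEC3G, APOBEC3H (with the same limit) and SAMHD1, as did 1060 of the genes compared (9.59%).

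**Figure D3:**
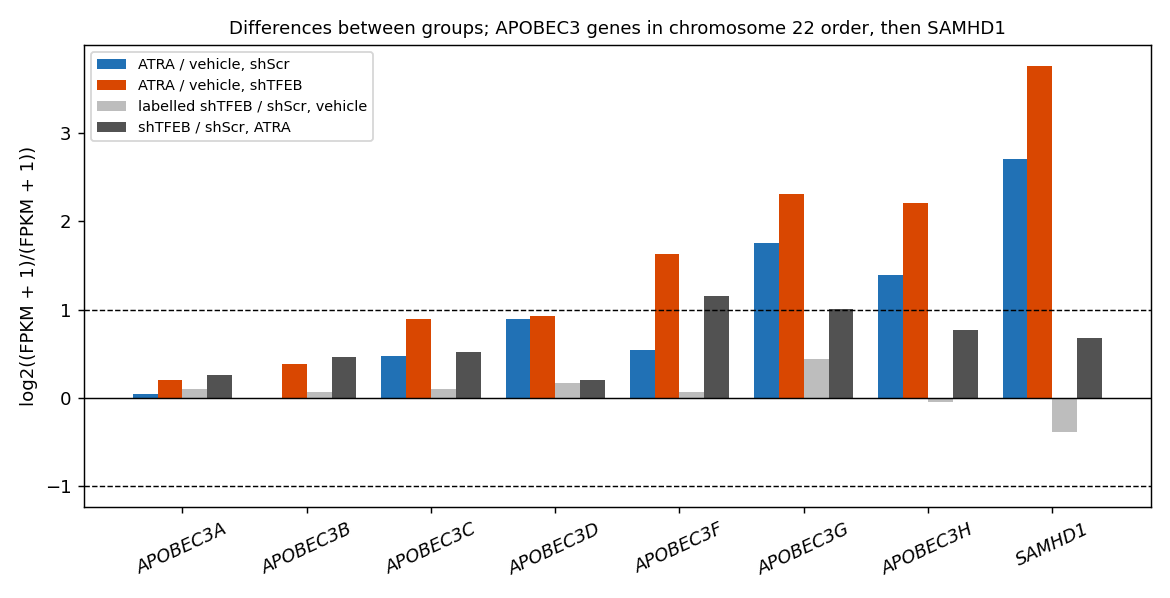
Differences between groups for each gene as log2((FPKM + 1)/(FPKM + 1)) on the vertical axis, 1 bar per comparison. The ATRA response of SAMHD1 is the tallest in both lines (2.70 and 3.76), and the vehicle comparison stays between −0.38 and 0.45.

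Without ATRA, none of the 8 was 2-fold apart between labelled shTFEB and shScr vehicle. The mark was passed by 1.06% of all genes upwards and 0.787% downwards, so this count says little about 8 genes. Their median was 0.08 against 0.02 over all genes. In this comparison APOBEC3G stood above 96.1% of the compared genes and SAMHD1 above 3.30%. APOBEC3G had the largest positive log2 ratio, 0.45 (2.21 against 1.35 FPKM, 1.63-fold), and was the member whose higher value had bounds apart, a state shared by 21.9% of all genes. SAMHD1 had the largest negative ratio, −0.38 (17.5 against 23.1 FPKM, a ratio of 0.757), also with bounds apart, which held for 14.9% of all genes in that direction. The other 6 lay between −0.04 and 0.17.

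Under ATRA, shTFEB cells had more APOBEC3F and APOBEC3G mRNA than shScr cells, and no member was lower. APOBEC3F was 2.66-fold higher (log2 ratio 1.15) and APOBEC3G 2.15-fold higher (1.00, right at the mark). These are 2 of 8 genes, beside 2.67% of all genes past the mark upwards and 1.58% downwards. The APOBEC3F call rested on its short transcript model: with the long model alone the log2 ratio was 0.41. The APOBEC3G call ended under median-of-ratios rescaling (0.95), upper-quartile rescaling (0.91), the midpoints of the bounds (0.96) and a pseudocount of 5 FPKM (0.74).

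The other 6 members also had higher values in shTFEB ATRA, short of the mark. APOBEC3H was 2.11-fold higher, with a log2 ratio of 0.77 that passed the mark with a pseudocount of 0.1 FPKM (1.04) or none (1.08). The other values were 1.60-fold for SAMHD1 (0.68), 1.44-fold for APOBEC3C (0.52), 1.396-fold for APOBEC3B (0.46), 1.25-fold for APOBEC3A (0.26) and 1.18-fold for APOBEC3D (0.20). The median of the 8 was 0.60, against 0.06 over all genes. Bounds were apart with shTFEB higher for 7 genes, all but APOBEC3A, beside 35% of all genes, and with shTFEB lower for none, beside 19.7%.

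The difference between these ATRA responses, shTFEB minus shScr, reached the mark for APOBEC3F (1.09) and SAMHD1 (1.06), beside 2.42% of all genes in that direction and 1.86% in the other. For SAMHD1 it comes from both ends, a lower vehicle value (17.5 against 23.1 FPKM) and a higher ATRA value (249 against 155 FPKM). That call ended under upper-quartile rescaling (0.96) and with a pseudocount of 5 FPKM (0.99). APOBEC3F stood at 0.34 without its short model. APOBEC3H followed at 0.81 (1.41 with a pseudocount of 0.1 FPKM), APOBEC3G at 0.56, APOBEC3C at 0.42, APOBEC3B at 0.39 and APOBEC3A at 0.15. APOBEC3D stood at 0.03, and at −0.05 after upper-quartile rescaling. The median was 0.49 over the 8 genes and 0.04 over all. This difference shares its groups with the comparisons above and is no separate evidence. It also uses the labelled shTFEB vehicle group, whose label TFEB mRNA does not settle.

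**Figure D4:**
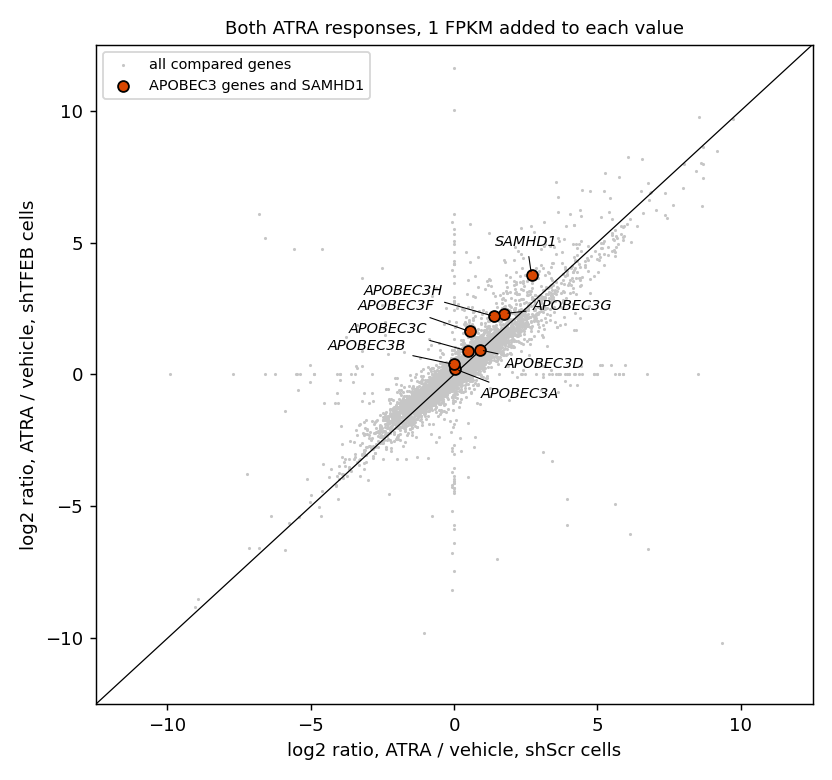
Log2 ratio of ATRA to vehicle in shScr cells (horizontal axis) and in shTFEB cells (vertical axis) with 1 FPKM added; grey points are the 11052 compared genes, orange points the 8 genes, and the line marks equal responses. All 8 lie on or above the line, APOBEC3D nearest to it (0.90 and 0.93) and APOBEC3F and SAMHD1 farthest (differences of 1.09 and 1.06).

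Transcript models differed within APOBEC3F and APOBEC3H. The long APOBEC3F model, NM_145298, read 1.63, 2.83, 1.76 and 4.08 FPKM in shScr vehicle, shScr ATRA, labelled shTFEB vehicle and shTFEB ATRA. The short model, NM_001006666 (hg19 chromosome 22, 39436673 to 39440428), was listed at 0 in the first 3 groups and at 3.45 FPKM in shTFEB ATRA, which is 45.8% of the gene there. Of the 567 words of 50 bases in this model of 616 bases, 40.4% also occur in the long model and 27.7% in APOBEC3G, while 59.6% occur in neither.

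Of the 4 APOBEC3H models, 1 was listed at 0 throughout. NM_001166002 read 0.979 FPKM in shScr ATRA and 1.95 in shTFEB ATRA, and NM_181773 read 0.306 and 1.65 FPKM. NM_001166004 read 0.0295 FPKM in shScr vehicle, 0.420 in shScr ATRA and 0 in shTFEB ATRA. NM_001166002 was thus the largest part of APOBEC3H in both ATRA groups (57.4% and 54.2%), while NM_181773 made up 17.9% in shScr ATRA and 45.8% in shTFEB ATRA. APOBEC3C, APOBEC3D, APOBEC3G and SAMHD1 have 1 model each in the tables.

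**Figure D5:**
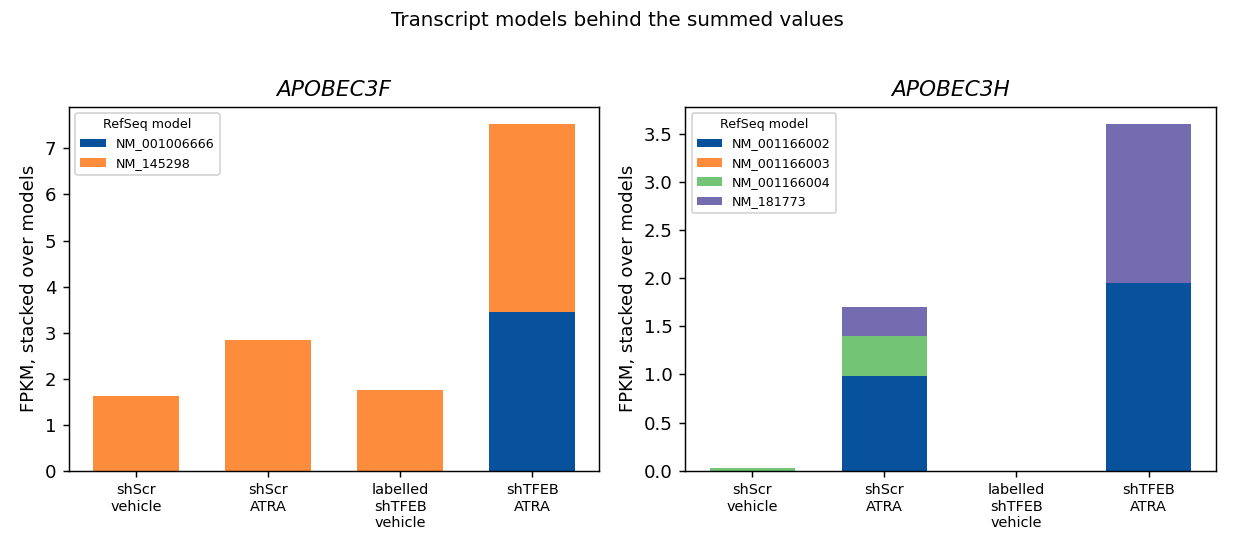
FPKM of the transcript models of APOBEC3F and APOBEC3H, stacked (vertical axes), in the 4 groups. The short APOBEC3F model appears in shTFEB ATRA alone, at 3.45 of 7.53 FPKM, and NM_001166002 is the largest part of APOBEC3H in both ATRA groups.

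The genes next to the members were examined within 250 kb. Around SAMHD1, 7 symbols were listed and 5 compared (NDRG3, DSN1, MTCL2, RBL1 and RPN2), and none of these 5 reached the mark in any of the 5 comparisons. TLDC2 (hg19 chromosome 20, 35504570 to 35522632) overlaps the SAMHD1 locus and was listed at 0 in all 4 groups. Around the APOBEC3 genes, 12 symbols were listed and 7 compared. SUN2, a nuclear envelope protein gene, read 15.4, 44.5, 18.7 and 38.6 FPKM and was the single neighbour that rose with ATRA in shScr cells and in shTFEB cells. The polycomb gene CBX6, which flanks APOBEC3A, read 6.87, 4.24, 6.72 and 5.82 FPKM. Its relative CBX7, beyond APOBEC3H, read 0.185, 1.19, 0.198 and 0.631 FPKM and fell short of the level required for comparison. SNORD83B and SNORD139, small nucleolar RNAs inside the RPL3 locus, fell in both lines, and SYNGR1 fell in shTFEB cells. No neighbour reached the mark under vehicle, and under ATRA SNORD139 alone was higher in shTFEB cells.

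Genes that act with the members were read from lists of known partners. Of 17 interferon-stimulated reference genes, 10 rose in shScr and all 17 in shTFEB cells, with medians of 2.33 and 5.56, and 16 were higher in shTFEB than in shScr ATRA (median 2.55). Beside that difference, SAMHD1 at 0.68 and APOBEC3G at 1.00 were smaller. ISG15, a ubiquitin-like modifier, read 8.65, 61.0, 9.62 and 529 FPKM, and IFI6 3.58, 175, 4.85 and 1154 FPKM. OAS3, which makes the activator of RNase L, read 0.112, 104, 0.373 and 394 FPKM. IFI44, at 0.491 FPKM in shScr ATRA, read 54.7 FPKM in shTFEB ATRA. The antiviral genes BST2 and TRIM5 were at 140 and 10.7 FPKM in shScr ATRA and at 402 and 23.8 FPKM in shTFEB ATRA.

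Of 19 compared genes for interferon receptors, JAK-STAT proteins and interferon regulatory factors (20 listed), 13 rose in shScr and 14 in shTFEB cells and none fell (medians 1.59 and 1.56). Under ATRA 5 were higher in shTFEB cells, with a median of 0.12 over the list. USP18, which removes ISG15 from proteins, read 2.16, 12.9, 2.31 and 93.9 FPKM. IRF9, the DNA-binding subunit of the complex that type I interferon activates, read 1.92, 33.4, 2.90 and 42.9 FPKM and so had like responses in the lines (3.56 and 3.49). SAMHD1, at 2.70 and 3.76, had the larger response in shTFEB cells.

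SAMHD1 cleaves deoxynucleoside triphosphates, which synthesis and salvage supply. Of 15 genes listed under synthesis and salvage, 1 rose and 3 fell in shScr cells, and 0 rose and 2 fell in shTFEB cells. The medians were −0.76 and −0.53. The list also holds DUT and DCTPP1, which do not make these triphosphates. RRM2, the regulated subunit of ribonucleotide reductase, read 77.9, 63.6, 72.7 and 72.7 FPKM. NME1, a nucleoside diphosphate kinase gene, read 267, 54.3, 258 and 86.8 FPKM, and the mitochondrial thymidine kinase gene TK2 read 2.10, 6.03, 2.31 and 5.32 FPKM, past the mark in shScr cells (1.18) and just short of it in shTFEB cells (0.93). None of the 15 was 2-fold apart between the lines under either treatment. NT5C3A, a pyrimidine nucleotidase of the 9 compared genes for nucleotide breakdown (11 listed), read 45.4, 39.8, 42.5 and 175 FPKM. It was the single gene of that list that rose in shTFEB cells and the single one that was higher in shTFEB than in shScr ATRA. In that list 3 genes fell in shScr and 1 in shTFEB cells, with medians of −0.71 and −0.33.

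Of 16 genes for cyclins, kinases and phosphatase subunits linked to SAMHD1 phosphorylation, 2 rose and 4 fell in shScr cells and 0 rose and 3 fell in shTFEB cells (medians −0.43 and −0.28). None was 2-fold apart between the lines under ATRA. The cyclin gene CCNA2 read 74.5, 30.6, 68.1 and 35.9 FPKM, and CDK4 read 123, 38.7, 128 and 48.0 FPKM. CDK1 and CDK2 read 126, 98.3, 123 and 102 FPKM, and 48.5, 27.4, 44.1 and 30.6 FPKM. The kinase inhibitor gene CDKN1A went from 1.05 to 6.54 FPKM in shScr and from 2.98 to 3.92 FPKM in shTFEB cells. The cyclin gene CCND1 went from 6.01 to 14.1 FPKM in shScr and from 11.2 to 17.5 FPKM in shTFEB cells. CDK1, CDK2 and CDK4 had lower values under ATRA, and of these CDK4 alone passed the mark (−1.64 and −1.40). CDK1 stood at −0.36 and −0.27, beside medians of −0.15 and −0.13 over all genes. The phosphorylation of SAMHD1 was not measured, and a link of these values to SAMHD1 was not tested.

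APOBEC3 enzymes leave uracil, which base excision repair removes. In that list of 11 genes 3 fell in each line and none rose, with medians of −0.56 and −0.39. UNG, the main uracil glycosylase, read 89.3, 19.8, 65.9 and 22.4 FPKM, and PARP1, a sensor of DNA breaks, 104, 34.1, 113 and 52.7 FPKM. No gene of that list was 2-fold apart between the lines under either treatment. Of 10 genes for cullin ligase parts and CBFB, which Vif and Vpx use, CUL4A alone fell in shScr cells (66.9 to 27.2 FPKM), and none reached the mark in the other comparisons of groups.

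Of 15 genes of the NF-kB, DREAM and protein kinase C systems linked to APOBEC3B transcription, 5 rose and 2 fell in shScr and 4 rose and 2 fell in shTFEB cells (medians 0.02 and 0.17). NFKB2 read 7.17, 51.9, 9.16 and 31.1 FPKM and REL 3.41, 16.9, 3.39 and 10.7 FPKM. APOBEC3B read 20.2, 20.04, 21.2 and 27.98 FPKM in the same order. A link of the genes in this list to APOBEC3B was not tested. MYBL2, a cell cycle activator, fell in both lines (133 to 43.1 and 114 to 39.9 FPKM). None of the 15 was 2-fold apart between the lines. Among 7 other deaminase genes 3 were compared. None of them reached the mark with ATRA, and CDA, the cytidine deaminase of nucleoside salvage, was lower in labelled shTFEB than in shScr vehicle (0.566 against 2.35 FPKM). APOBEC1 was listed at 0 in all 4 groups.

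The genes with the most similar pattern were found from the root-mean-square difference of log2(FPKM + 1), each gene centred on its own mean over the 4 groups. With 4 points per gene, these are descriptions. SAMHD1 was nearest to the EEF1E1-BLOC1S5 readthrough (0.14), then CD300LB (0.15) and LGALS3BP (0.16), which read 8.92, 50.3, 4.76 and 93.8 FPKM. APOBEC3G was nearest to DHRS9 (0.039, at 12.4, 43.7, 18.0 and 86.0 FPKM), then FBXO6 and OPTN. APOBEC3H was nearest to H2BC5 (0.062), ZNFX1 and F5, and APOBEC3F to TAP2 (0.055), ZCCHC2 and SOCS1.

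The members with smaller responses had closer matches. APOBEC3A was nearest to EMC3 (0.011), CCNT2 and S1PR4, and APOBEC3B to TRIM26 (0.026), TADA3 and LPCAT3. APOBEC3C was nearest to CD2AP (0.028), SLC29A1 and MICB, and APOBEC3D to CCNL1 (0.021), M6PR and CLK1. Among the members, APOBEC3A and APOBEC3B were nearest to each other at 0.079. They share 50-base words, as do APOBEC3F and APOBEC3G, which differed by 0.49. The part of shared words in these patterns was not tested. APOBEC3C and APOBEC3D differed by 0.16, APOBEC3G and APOBEC3H by 0.22, and SAMHD1 stood 0.68 from its nearest member, APOBEC3G.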

How the data were processed

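The authors deposited FPKM values, 1 table per group. Their tools were TopHat, Cufflinks and Cuffdiff with the hg19 genome, per the submitters' processing notes, and versions are not given in the sources used here. How the 2 samples of a group were combined is not stated. Each table lists 65986 models with an FPKM, bounds and a status, and all 14 member models had the status OK. RefSeq models were named from a RefSeq table of GRCh38.p14 (39841 of 41159 accessions, 96.8%), used for names alone; loci are hg19, counted from 1. FPKM and bounds were summed per symbol. The 11052 symbols with a mean of at least 1 FPKM were compared in 5 ways as log2 ratios with a pseudocount of 1 FPKM, without further normalisation. Calculations used Python 3.11.15, pandas 2.3.3, numpy 2.4.6 and matplotlib 3.10.9, and were tested on simulated data.

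Named genes were the 8 members, TFEB, ISG15, IFI6, IRF9 and RRM2, from each context list up to 3 genes with the largest shTFEB against shScr difference under ATRA and up to 2 with the largest shScr response, symbols within 250 kb, and the 3 most similar patterns. CCNA2, CCND1, CDK1, CDK2, MYBL2, TK2, BST2, TRIM5 and APOBEC1 were named after their values were seen. Some genes that the rule names are left out of the text. Members, lists and rules were chosen with earlier results of these data known. Words of 50 bases were compared between GENCODE 29 transcripts. Other settings tried were the pseudocount (0.1 or 5 FPKM), the filter (none or a mean of 5 FPKM), rescaling by the upper quartile or by median ratios, use of the highest model of a gene or of models with status OK, the mark joined with bounds apart, and those added later that are named below.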

Additional observations from a re-analysis of the deposited data

How the results depend on the processing

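The count of members higher was 3 in the shScr response, 4 in the shTFEB response, 2 between the lines under ATRA and 2 in the difference of responses. With a pseudocount of 5 FPKM these became 1, 2, 0 and 0 of 8, beside 7.90%, 7.19%, 1.54% and 1.68% of all genes. A mean of at least 5 FPKM left 4 members. The shTFEB response, the ATRA comparison and the difference of responses then gave 2, 1 and 1, beside 11.3%, 2.43% and 2.20% of all genes. Use of the highest model only left 7 members and gave 2, 1 and 1, beside 11.3%, 2.59% and 2.46%. Between the lines under ATRA the count was 1 after median-of-ratios rescaling and 1 after upper-quartile rescaling, which also left 1 in the difference of responses. The shares of all genes were 2.38%, 2.19% and 2.22% in that order. Alternatives chosen after seeing the data were the midpoint of the bounds, no pseudocount, and leaving out the short APOBEC3F model. The first gave 1 under ATRA, and the last 1 under ATRA and 1 in the difference, beside 2.16%, 2.66% and 2.42% of all genes. Other counts of members (102 of 118) stayed within 1.5 times. Among them, median-of-ratios rescaling added APOBEC3C (1.03) and APOBEC3D to the 4 members higher in the shTFEB response, beside 13.0% of all genes. Of 444 recomputed member values, 415 kept their side of the mark, 18 fell short of it and 11 newly passed it. Many of the 415 could not change. The filters and the use of models with status OK leave a member's ratio as it is. The settings on models cannot change genes with 1 model. Without the filter, or with status OK models, the member counts could not change either. Neither 415 of 444 nor 102 of 118 therefore measures stability. Among values past the mark 0 reversed in sign. Sign changes of smaller ratios, as for APOBEC3B and APOBEC3D above, are counted as kept. APOBEC3D passed in both lines with a pseudocount of 0.1 FPKM (1.09 and 1.10) and with median-of-ratios rescaling (1.04 and 1.05). Of 1062 context list counts 42 moved. Median-of-ratios rescaling shifted the median of all genes by 0.15 in the shScr response and raised the share of higher among called genes from 45.2% to 56.2%; relative to the median of all genes, SAMHD1 stood at 2.85 and 3.89 in the responses. The causes of these shifts were not tested. No paired analysis was possible because the tables hold 1 value per group, and for the same reason no sample could be left out in turn. At low levels, as for APOBEC3H, few fragments stand behind a value.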

Other observations

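A joined APOBEC3A_B model, which corresponds to a known germline deletion between APOBEC3A and APOBEC3B, was listed at 0 in all 4 groups. The 10 assembled models without a symbol near the members did not exceed 0.0259 FPKM in any group.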
